A study of Arabidopsis thaliana and Brassica rapa with 28 samples.

Results

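The shade response of control Arabidopsis thaliana seedlings was read from 8 whole-seedling libraries, 4 in shade and 4 in white light, out of 28 libraries in the series. Shade was simulated by lowering red relative to far-red light for 4 h, and the white-light group stayed in white light for the same 4 h. All seedlings were 5 d old and had been raised in continuous white light on agar plates. Both groups were hemizygous for UAS::axr3-1::mCit, a construct for a stabilised AXR3 repressor that has no driver in these plants, so the controls are not untransformed wild type. The second genotype, used here only where its shade response is set beside the control, was CER6pro>>axr3-1::mCit, in which the promoter of the wax gene CER6 drives the same repressor in the epidermis. It was sampled as 4 libraries in shade and 4 in white light at the same age and time. The remaining 12 libraries are from Brassica rapa and were not used.

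In open light the phytochromes, above all phytochrome B, are held in the active form by red light and destabilise or inactivate the PIF bHLH transcription factors. Light rich in far-red returns phytochrome to the inactive form, PIF proteins then bind G-box elements, and auxin synthesis and stem elongation follow within hours. Whole seedlings hold cotyledon, hypocotyl and root, so in these data fewer cells of a type and less RNA per cell cannot be told apart.

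The authors deposited 1 value per gene and group, in FPKM (fragments scaled to transcript length and library size), pooled over the 4 libraries of the group. No value per library was used here, so no spread among libraries can be shown, the depth is unknown, and the values below carry no SD. A log2 fold is log2 of shade over white light, and the figure after ± is its standard error, derived from the authors' test statistic. For some genes, PAR1, IAA34 and SAUR10 among them, the deposited p gives a different error, and their ± is uncertain. A value in brackets after a pair of FPKM values is this log2 fold. A gene is called higher or lower where the q-value in the authors' deposited table is under 0.05. The labels leave unsaid if replicate libraries were grown as separate cultures, so the calls measure only the spread between these libraries.

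Of 33543 genes listed, 20325 were tested and 580 were called, 253 higher and 327 lower in shade. These are 2.85%, 1.24% and 1.61% of tested genes, the background for each count of a gene group below. The gene lists were chosen with earlier results of these data known, so their counts beside this background are description, not a test. Called rises were larger in median log2 fold than called falls. The median log2 fold was 1.35 among the genes called higher and -1.09 among those called lower. Genes called higher had a median of 31.2 FPKM in shade, against 11.5 FPKM in white light, and genes called lower a median of 14.1 FPKM in shade, against 30.6 FPKM in white light. Changes past 8-fold numbered 28 up and 10 down, and past 4-fold 61 up and 35 down. Over the 19544 genes with at least 1 FPKM in both groups the median log2 fold was 0.0048, with the middle 50% of genes from -0.16 to 0.15. The share of genes called grew with level, from 1.78% at a mean of 1 to 10 FPKM to 3.57% at 10 to 100 FPKM and 4.86% above 100 FPKM.

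**Figure D1:**
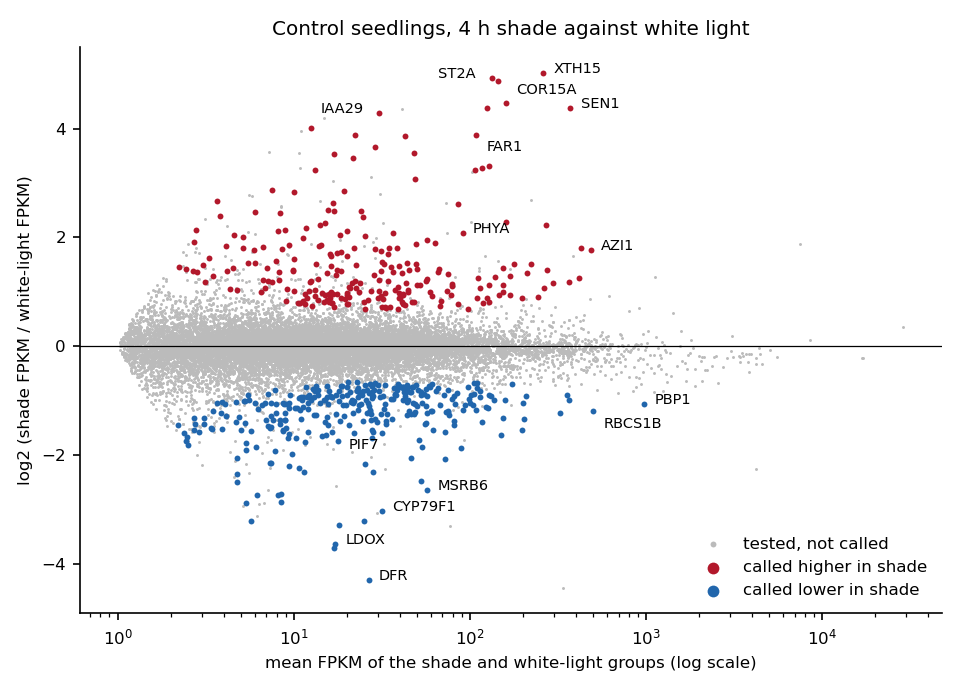
Log2 of shade over white-light FPKM (vertical axis) against the mean FPKM of both groups (horizontal axis, log scale) for the 19544 tested genes with at least 1 FPKM in both groups. Red points were called higher in shade, blue points lower and grey points were not called; XTH15 tops the rises at a log2 fold of 5.03, and DFR is the deepest called fall at -4.30.

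Marker genes for the organs and tissues of a seedling were present in both groups, and 1 was called. Markers of epidermis, guard cells, root hairs, endodermis, stele, phloem and root meristem were at 1 FPKM or more in both groups and none was called. Of 9 epidermal markers 8 had log2 folds below 0, with a median of -0.28, and without the most abundant, LTP1, their sum was 852 FPKM in shade and 984 FPKM in white light. Of 6 root hair markers 5 were below 0, with a median of -0.21, and without the most abundant, PRP3, their sum was 52.4 FPKM in shade and 61.4 FPKM in white light. All 5 trichome markers, at no more than 5.91 FPKM, and all 4 phloem markers were below 0, with medians of -0.48 and -0.27. The root cortex and endodermis markers and the root cap and root meristem markers had medians of 0.039 and 0.027. The part of these shifts in the results below was not tested. Among 4 root nutrient uptake markers FRO2 was called higher, as described with the iron genes. Of the 5 shoot meristem markers only STM reached 1 FPKM, and WUS was listed at 0 in white light. The mesophyll marker LHCB1.3 (AT1G29930, CAB1) was listed at 0 in shade and at 12165 FPKM in white light and marked in the authors' deposited table as having too many reads to test, while RBCS1A was at 15647 FPKM in shade and 18210 FPKM in white light, so this 0 is given as listed and is not read as a fall.

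Phytochrome and PIF transcripts moved in both directions. Of 14 tested members 5 were called higher and 1 lower, with a median log2 fold of -0.074, against 0.0048 over all genes. PHYA (AT1G09570), the photoreceptor that is stable in the dark and responds to far-red light, rose to 147 FPKM in shade, against 35.0 FPKM in white light, a log2 fold of 2.07 ± 0.27. PHYB (AT2G18790), the main sensor of the red to far-red ratio, rose to 40.8 FPKM in shade, against 20.2 FPKM in white light (1.02 ± 0.26). FHL (AT5G02200), which carries phytochrome A into the nucleus, rose to 14.3 FPKM in shade, against 5.42 FPKM in white light (1.40 ± 0.38). PHYC, PHYD and PHYE had log2 folds between -0.11 and -0.074 and were not called, so the rise covered PHYA and PHYB among the 5 photoreceptor genes.

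Among the PIF genes the direction also split. PIF6 (AT3G62090) rose to 27.1 FPKM in shade, against 8.31 FPKM in white light (1.71 ± 0.29), and PIF3 (AT1G09530) to 19.3 FPKM in shade, against 9.83 FPKM in white light (0.97 ± 0.25). PIF7 (AT5G61270), known as a main driver of shade-induced auxin synthesis, fell to 8.28 FPKM in shade, against 27.6 FPKM in white light, a log2 fold of -1.74 ± 0.28. PIF4 was at 40.2 FPKM in shade and 53.9 FPKM in white light (-0.43 ± 0.26), and PIF5 at 47.4 FPKM in shade and 55.7 FPKM in white light (-0.23 ± 0.24); neither was called.

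**Figure D2:**
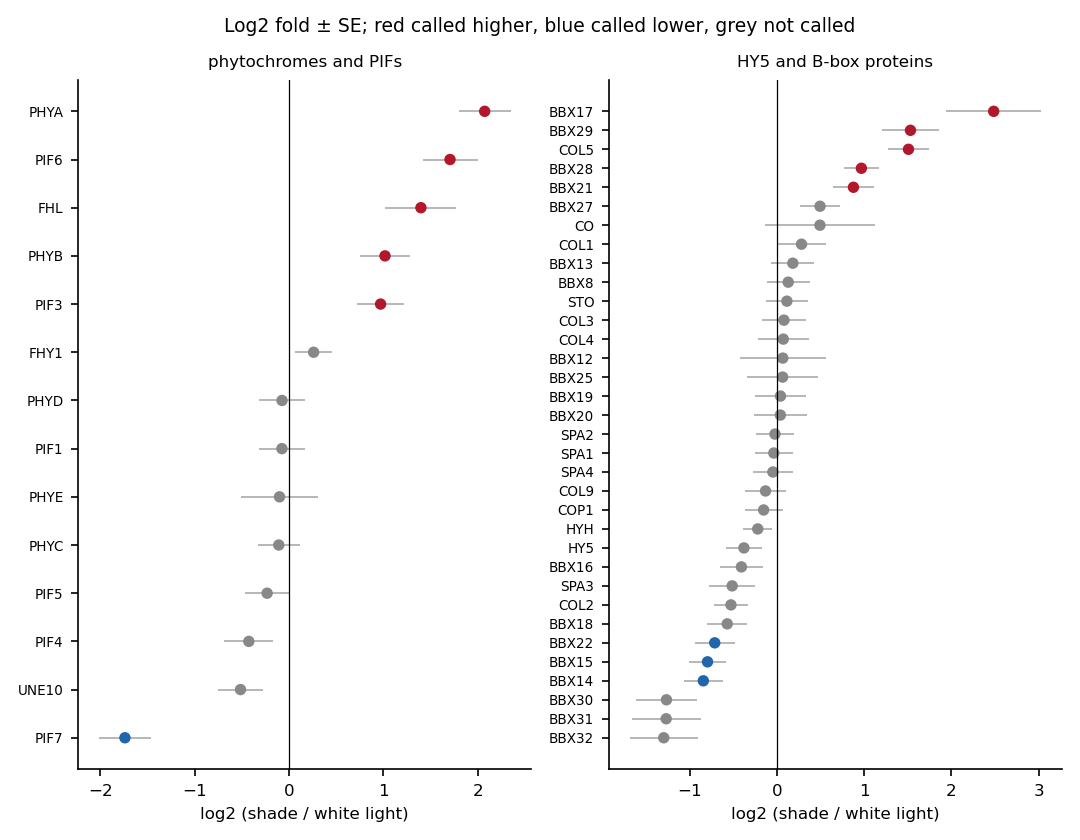
Log2 fold of shade over white light (horizontal axis) with its standard error for each tested phytochrome and PIF gene (left) and each HY5, COP1, SPA and B-box gene (right) at 1 FPKM or more. BBX23, called higher but listed at 0 in white light, has no log2 fold and is not plotted. Red points were called higher, blue points lower and grey points were not called; PHYA leads the left panel at 2.07 and PIF7 closes it at -1.74, and BBX17 leads the right panel at 2.48.

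The bHLH and HD-ZIP II genes by which shade is usually recognised held 3 calls among 14 tested members, all higher, with 12 of 14 log2 folds above 0 and a median of 0.59. PIL1 (AT2G46970) was at 37.3 FPKM in shade and 0.894 FPKM in white light, HFR1 (AT1G02340), an atypical bHLH that sequesters PIF proteins, at 80.5 FPKM in shade and 5.54 FPKM in white light, and ATHB2 (AT4G16780) at 87.4 FPKM in shade and 10.4 FPKM in white light; all 3 were called higher. PAR1 (AT2G42870), another atypical bHLH, was at 49.4 FPKM in shade and 5.74 FPKM in white light (3.11 ± 0.83) and was not called. HAT2 (AT5G47370) was at 33.2 FPKM in shade and 21.1 FPKM in white light (0.66 ± 0.20) and was not called either. The HD-ZIP II genes HAT1, HAT9, HAT14 and HAT22 lay between -0.086 and 0.075, and ATHB2 was the HD-ZIP II gene that was called. Over the whole list, 9 of 14 members rose at an unadjusted p under 0.05 in the authors' Cuffdiff test, and 0 fell.

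B-box zinc finger genes, whose products act beside HY5 in seedling greening, held 6 rises and 3 falls among 35 tested members of a list that also holds HY5, COP1 and the SPA genes. BBX17 (AT1G49130) rose to 28.7 FPKM in shade, against 5.13 FPKM in white light (2.48 ± 0.55). BBX29 (AT5G54470) rose to 9.01 FPKM in shade, against 3.12 FPKM in white light (1.53 ± 0.32), and COL5 (AT5G57660) to 266 FPKM in shade, against 93.4 FPKM in white light (1.51 ± 0.23). BBX28 (AT4G27310), a repressor of HY5 activity, and BBX21 (AT1G75540), an activator of HY5, both rose, with log2 folds of 0.97 ± 0.20 and 0.88 ± 0.24. BBX23 (AT4G10240) was at 6.96 FPKM in shade and listed at 0 in white light, and was called higher. BBX14 (AT1G68520), BBX15 and BBX22 fell, with log2 folds of -0.84 ± 0.23, -0.79 ± 0.21 and -0.71 ± 0.23. The related BBX30, BBX31 and BBX32 had lower folds still, between -1.30 and -1.27, but stood at no more than 6.01 FPKM and were not called. HY5 (AT5G11260) itself was at 20 FPKM in shade and 26.0 FPKM in white light (-0.38 ± 0.21) and was not called.

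Promoters of 6 called members are shown, chosen because their windows hold the G-box or a cold-response element. Each run is 300 bases from the TAIR10.1 assembly of RefSeq, 250 bases before to 50 after the annotated gene start, written on the strand of the gene. Capitals mark CACGTG, the G-box, and CCGAC or its reverse complement GTCGG, the core of the dehydration-responsive element bound by CBF proteins. FHL and PHYB, which rose, each hold a pair of G-boxes, and DFR, which fell, holds 2, on either side of the gene start. IAA19 holds 1 G-box and 1 dehydration-responsive core, COR15A 1 G-box and 2 such cores, and RD29A 4 such cores. Outside the 6 shown, named genes with 1 such core each include PIL1, HFR1, BEE1, PIF7, PIF3, COL5 and IAA2. The windows of PIL1, HFR1, ATHB2, IAA29, YUC8 and XTH15, with larger rises than FHL, PHYB and IAA19, hold no CACGTG. BEE1 also had a larger rise, a log2 fold of 2.86, and its window holds 1 CACGTG. The windows of COR15B and CBF3 hold no CCGAC.
FHL, chr5:437115-437414 on the plus strand: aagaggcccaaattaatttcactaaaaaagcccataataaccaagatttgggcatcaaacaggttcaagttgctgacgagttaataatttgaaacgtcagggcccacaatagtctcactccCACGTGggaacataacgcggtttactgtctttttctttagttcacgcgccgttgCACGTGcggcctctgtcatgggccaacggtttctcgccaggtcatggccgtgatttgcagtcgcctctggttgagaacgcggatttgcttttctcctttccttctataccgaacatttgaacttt
PHYB, chr2:8139506-8139805 on the plus strand: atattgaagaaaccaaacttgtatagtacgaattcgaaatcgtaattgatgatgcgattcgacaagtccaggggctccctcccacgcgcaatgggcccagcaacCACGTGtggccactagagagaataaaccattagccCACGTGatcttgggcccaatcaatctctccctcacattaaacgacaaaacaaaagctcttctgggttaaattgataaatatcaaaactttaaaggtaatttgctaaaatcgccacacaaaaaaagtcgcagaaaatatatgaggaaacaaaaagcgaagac
IAA19, chr3:5263751-5264050 on the plus strand: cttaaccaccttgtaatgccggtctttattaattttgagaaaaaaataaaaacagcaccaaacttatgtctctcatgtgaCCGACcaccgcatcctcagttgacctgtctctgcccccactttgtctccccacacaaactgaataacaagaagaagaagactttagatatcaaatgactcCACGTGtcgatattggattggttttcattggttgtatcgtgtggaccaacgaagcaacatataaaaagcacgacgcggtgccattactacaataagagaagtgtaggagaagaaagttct
DFR, chr5:17165983-17166282 on the minus strand: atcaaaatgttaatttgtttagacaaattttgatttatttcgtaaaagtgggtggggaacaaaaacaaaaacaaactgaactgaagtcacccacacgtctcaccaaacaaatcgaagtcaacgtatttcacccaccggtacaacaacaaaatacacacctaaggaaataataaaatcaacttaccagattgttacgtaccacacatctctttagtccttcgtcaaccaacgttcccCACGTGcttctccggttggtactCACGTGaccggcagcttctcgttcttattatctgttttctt
COR15A, chr2:17712281-17712580 on the minus strand: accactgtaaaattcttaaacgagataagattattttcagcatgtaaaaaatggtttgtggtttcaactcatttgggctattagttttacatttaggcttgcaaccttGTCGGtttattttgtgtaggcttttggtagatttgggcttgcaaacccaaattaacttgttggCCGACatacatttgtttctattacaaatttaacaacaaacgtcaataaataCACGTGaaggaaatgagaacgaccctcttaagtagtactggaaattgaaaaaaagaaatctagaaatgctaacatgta
RD29A, chr5:21240467-21240766 on the plus strand: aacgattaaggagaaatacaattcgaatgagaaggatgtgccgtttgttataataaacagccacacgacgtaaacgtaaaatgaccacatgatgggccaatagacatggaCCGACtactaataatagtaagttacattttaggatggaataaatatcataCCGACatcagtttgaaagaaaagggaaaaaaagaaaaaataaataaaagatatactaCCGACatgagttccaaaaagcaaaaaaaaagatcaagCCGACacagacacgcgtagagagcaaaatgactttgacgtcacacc

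The same letters also occurred in windows of tested genes at large. CACGTG, searched on both strands, stood in 10.8% of the windows of genes called higher and 11.6% of those called lower, against 8.86% of all 19489 windows of tested genes. The wider pattern CANNTG, which includes CACGTG, stood in 63.9% of windows called higher and 67.2% of windows called lower, against 62.6% of all. ACGTG, which overlaps CACGTG, stood in 34.5% and 35.3% of windows called higher and lower, against 28.2% of all. CCGAC stood in 16.9% of windows called higher and 11.9% of windows called lower, against 16.1% of all. In windows from 1000 bases before to 50 after the start, added after seeing the data, CACGTG stood in 28.1% of windows called higher and 22.8% of windows called lower, against 17.4% of all. These shares are descriptions of letters, not of binding.

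Early auxin genes held more called rises than falls, and most of their members were not called. Of 27 tested Aux/IAA genes, which encode repressors of auxin response, 6 were called higher and none lower, 20 log2 folds lay above 0 and the median was 0.45. Besides IAA29 (AT4G32280), at 57.9 FPKM in shade and 2.96 FPKM in white light, and IAA19 (AT3G15540), at 29.7 FPKM in shade and 7.22 FPKM in white light, the called members were IAA34, IAA7, IAA2 and IAA4. IAA34 (AT1G15050) rose to 8.74 FPKM in shade, against 0.992 FPKM in white light (3.14 ± 0.44). The abundant IAA7 (AT3G23050) rose to 302 FPKM in shade, against 119 FPKM in white light (1.35 ± 0.27), and IAA2 (AT3G23030) to 158 FPKM in shade, against 66.2 FPKM in white light (1.25 ± 0.28). IAA4 (AT5G43700) rose to 78.6 FPKM in shade, against 39.6 FPKM in white light (0.99 ± 0.18). AXR3, the gene copied in the transgene, was at 37.1 FPKM in shade and 47.1 FPKM in white light (-0.34 ± 0.20) and was not called. IAA6 had a log2 fold of 4.10 ± 0.66 at no more than 3.93 FPKM and was not called.

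The auxin-conjugating GH3 enzymes held 3 rises among 8 tested genes, with a median of 0.26. GH3.3 (AT2G23170) rose to 54.1 FPKM in shade, against 15.5 FPKM in white light, GH3.5 (AT4G27260) to 65.2 FPKM in shade, against 22.5 FPKM in white light, and GH3.6 (AT5G54510) to 51.8 FPKM in shade, against 27.9 FPKM in white light. In auxin synthesis YUC8 (AT4G28720), YUC2 (AT4G13260) and YUC9 (AT1G04180), flavin monooxygenases of the last step, were the 3 called of 9 tested, at 23.8, 5.01 and 4.97 FPKM in shade, against 2.52, 1.63 and 2.02 FPKM in white light. TAA1, the enzyme of the step before, was at 11.7 FPKM in shade and 18.3 FPKM in white light (-0.65 ± 0.24) and was not called. Among 20 transport genes PIN3 (AT1G70940), an efflux carrier, rose to 98.7 FPKM in shade, against 48.9 FPKM in white light (1.01 ± 0.27), and PIN5 (AT5G16530), a carrier of the endoplasmic reticulum, fell to 1.12 FPKM in shade, against 3.78 FPKM in white light (-1.75 ± 0.42). Of 23 receptors and response factors, ARF18 (AT3G61830) and ARF11 (AT2G46530) rose, with log2 folds of 1.23 ± 0.21 and 0.99 ± 0.24.

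SAUR genes, short transcripts often used as growth markers, were mostly above 0 but rarely called. Of 62 members at 1 FPKM or more, 38 log2 folds were above 0 and 24 below, with a median of 0.33, while 3 of 61 tested members were called higher and 2 lower. SAUR71 (AT1G56150), SAUR19 (AT5G18010) and SAUR1 (AT4G34770) rose to 14.1, 13.3 and 18.1 FPKM in shade, against 2.58, 3.05 and 4.53 FPKM in white light. SAUR14 (AT4G38840) and SAUR31 (AT4G00880) fell to 14.1 and 11.3 FPKM in shade, against 42.0 and 21.7 FPKM in white light. SAUR10 (AT2G18010) was at 13.3 FPKM in shade and 1.11 FPKM in white light, a log2 fold of 3.58 ± 0.29. It was not called, with a q of 0.169 in the authors' deposited table. Its statistic and deposited p gave different errors, so this ± is uncertain. Members of the SAUR19 group are near-identical copies, and how reads were split among them is uncertain.

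Gibberellin genes changed at the synthesis step that limits the pathway and at inactivation. Among 20 tested genes, 4 called rises stood beside 1 called fall, with a median of 0.26. The oxidases GA20OX1 (AT4G25420) and GA20OX3 (AT5G07200) rose to 4.49 and 1.99 FPKM in shade, against 1.60 and 0.476 FPKM in white light, and GA2OX6 (AT1G02400), an inactivating oxidase, to 22.4 FPKM in shade, against 6.16 FPKM in white light. RGL1 (AT1G66350), a DELLA repressor, rose to 8.69 FPKM in shade, against 4.36 FPKM in white light (1.00 ± 0.27). GA3OX2 (AT1G80340), of the last activating step, fell to 2.91 FPKM in shade, against 8.57 FPKM in white light. Of 5 tested genes for GASA peptides, a family named for its response to gibberellin, GASA14 (AT5G14920) rose to 265 FPKM in shade, against 54.3 FPKM in white light (2.29 ± 0.38), and GASA1 (AT1G75750) to 211 FPKM in shade, against 96.8 FPKM in white light (1.12 ± 0.29).

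In the ethylene list 4 of 21 tested genes were called higher and none lower, with a median of 0.43. ACS8 (AT4G37770) and ACS4 (AT2G22810), which make the ethylene precursor, rose to 29.4 and 3.54 FPKM in shade, against 0.897 and 1.33 FPKM in white light. ACO4 (AT1G05010), which makes ethylene from it, rose to 319.7 FPKM in shade, against 172 FPKM in white light (0.90 ± 0.22), and the receptor gene ERS2 (AT1G04310) to 9.35 FPKM in shade, against 4.44 FPKM in white light (1.07 ± 0.28). Of 18 brassinosteroid signalling genes, the growth-promoting bHLH genes BEE1 (AT1G18400) and PRE6 (AT1G26945) rose to 33.8 and 90.3 FPKM in shade, against 4.65 and 23.3 FPKM in white light. PRE1 (AT5G39860) was at 3.56 FPKM in shade and 5.09 FPKM in white light and was not called. None of 16 brassinosteroid synthesis and inactivation genes was called in the authors' Cuffdiff test, with 3 at an unadjusted p under 0.05, and the most abundant, DWF1 (AT3G19820), was at 210.2 FPKM in shade and 200.4 FPKM in white light. In the cytokinin list, 27 tested, CKX5 (AT1G75450), which degrades the hormone, rose to 15.1 FPKM in shade, against 4.95 FPKM in white light (1.61 ± 0.37), and ARR4 (AT1G10470), a type-A response regulator, fell to 26.6 FPKM in shade, against 49.0 FPKM in white light (-0.88 ± 0.21).

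Wall-loosening genes changed in both directions within the same families. Among 28 tested XTH genes, which cut and rejoin xyloglucan, 5 rose and 3 fell, and the median was 0.0045. XTH15 (AT4G14130) was at 506 FPKM in shade and 15.5 FPKM in white light, XTH33 (AT1G10550) at 13.2 FPKM in shade and 1.80 FPKM in white light and TCH4 (AT5G57560) at 72.9 FPKM in shade and 25.6 FPKM in white light; all 3 were called higher. The rises of XTH8 and XTH19, of 1.13 ± 0.20 and 1.12 ± 0.19, stood beside falls of XTH31 (AT3G44990), XTH32 (AT2G36870) and XTH7 (AT4G37800) to 18, 8.32 and 65.0 FPKM in shade, against 74.4, 21.8 and 170.3 FPKM in white light. Among 23 expansins EXPA16 (AT3G55500), EXLA2 (AT4G38400) and EXPA11 (AT1G20190) rose, with log2 folds of 1.80 ± 0.25, 0.96 ± 0.23 and 0.72 ± 0.22, and EXPA5 (AT3G29030) and EXPB3 (AT4G28250) fell, with log2 folds of -1.28 ± 0.24 and -1.19 ± 0.25. Of 32 genes of cellulose and wall assembly none rose and 2 fell, the cellulose synthase gene CESA5 (AT5G09870) and the arabinogalactan protein gene FLA15 (AT3G52370), with log2 folds of -0.85 ± 0.24 and -1.01 ± 0.24.

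Several cold-regulated genes rose in shade. Of 22 tested genes of cold and abscisic acid response 7 were called higher and none lower, 18 log2 folds were above 0 and the median was 0.59. COR15A (AT2G42540) and COR15B (AT2G42530), which encode chloroplast stroma proteins that protect membranes in freezing, rose to 306 and 195 FPKM in shade, against 13.7 and 20.5 FPKM in white light. The transcription factor genes CBF3 (AT4G25480) and CBF2 (AT4G25470) rose to 6.38 and 4.57 FPKM in shade, against 1.01 and 1.04 FPKM in white light, and CBF1 was at 2.76 FPKM in shade and 0.239 FPKM in white light without being called. GolS3 (AT1G09350), which starts the raffinose pathway, rose to 40.0 FPKM in shade, against 3.61 FPKM in white light, RD29A (AT5G52310) to 213 FPKM in shade, against 21.9 FPKM in white light, and COR6.6 (AT5G15970) to 667 FPKM in shade, against 189.7 FPKM in white light.

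Outside that list the chloroplast inner membrane gene COR413IM1 (AT1G29395) rose to 445 FPKM in shade, against 95.0 FPKM in white light (2.23 ± 0.21), and RCI2A (AT3G05880) to 588 FPKM in shade, against 247 FPKM in white light (1.25 ± 0.28). The delta-9 desaturase gene ADS1 (AT1G06080) rose to 89.5 FPKM in shade, against 7.6 FPKM in white light (3.56 ± 0.25). Growth temperature was not among the labels used here, and its part in these rises was not tested. COR15A with COR15B, the 3 CBF genes, and COR6.6 with KIN1 are tandem near-copies, and their split of reads is uncertain.

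**Figure D3:**
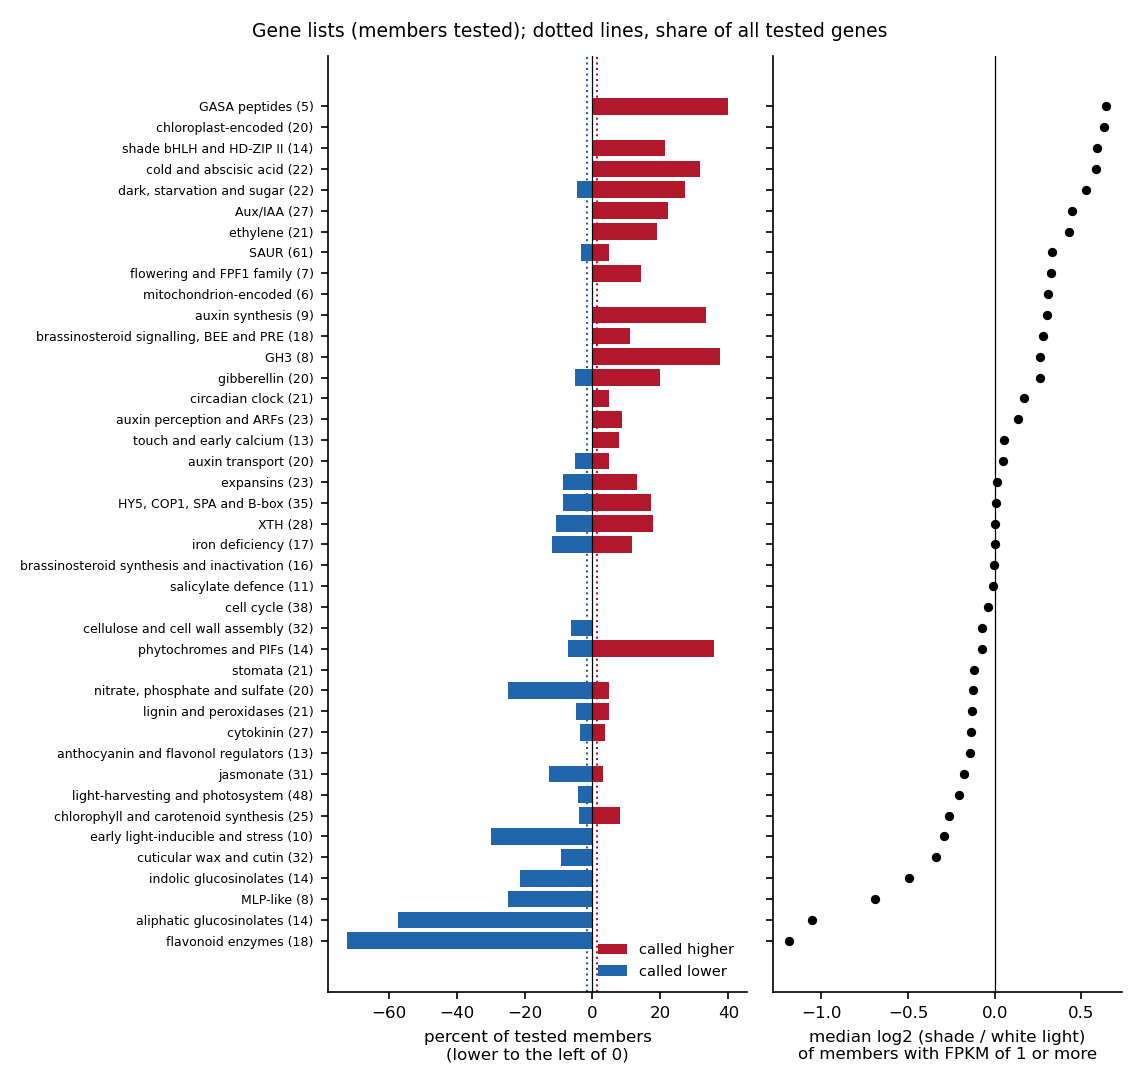
Percent of tested members called higher (red, right of 0) and lower (blue, left of 0) in each gene list, with the number tested in brackets, and the median log2 fold of members at 1 FPKM or more (right panel). Dotted lines are the shares of all tested genes, 1.24% higher and 1.61% lower; the flavonoid enzymes reach furthest to the left, with 13 of 18 lower.

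Several genes of low-energy states rose as well. In the list of dark, starvation and sugar genes 6 of 22 tested members were called higher and 1 lower, with a median of 0.53. SEN1 (AT4G35770), a rhodanese-domain gene induced in the dark, rose to 711 FPKM in shade, against 34.2 FPKM in white light, a log2 fold of 4.38 ± 0.23. DYL1 (AT1G28330), a dormancy-associated gene, rose to 329 FPKM in shade, against 115 FPKM in white light (1.51 ± 0.37). EXL4 (AT5G09440), the trehalose phosphate synthase homologue TPS10 (AT1G60140), TPS11 and AKINBETA1 (AT5G21170), a subunit of the energy sensor kinase SnRK1, rose with log2 folds between 0.78 and 0.94. SWEET15 (AT5G13170), a sucrose exporter, fell to 1.1 FPKM in shade, against 3.89 FPKM in white light (-1.82 ± 0.40).

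Most flavonoid enzyme genes fell in shade, furthest those of the anthocyanin branch. Of 18 tested genes 13 were called lower and none higher, 17 log2 folds were below 0 and the median was -1.19. DFR (AT5G42800) and LDOX (AT4G22880), the anthocyanin branch enzymes, and TT19 (AT5G17220), a glutathione S-transferase that carries anthocyanin to the vacuole, fell to 2.57, 2.56 and 3.36 FPKM in shade, against 50.7, 31.9 and 32.7 FPKM in white light. UF3GT (AT5G54060) and AT4G14090, both glycosyltransferases, fell to 0.782 and 3.35 FPKM in shade, against 9.34 and 15.5 FPKM in white light, and TT7 (AT5G07990), a flavonoid hydroxylase, to 2.72 FPKM in shade, against 12 FPKM in white light. The early and more abundant TT4 (AT5G13930), chalcone synthase, fell to 101 FPKM in shade, against 294 FPKM in white light, a log2 fold of -1.54 ± 0.29. F3H (AT3G51240), TT5 (AT3G55120), FLS1 (AT5G08640), 4CL3, PAL3 and UGT78D2 fell with log2 folds between -1.42 and -0.94. The general phenylpropanoid genes PAL1, PAL2, PAL4, C4H and 4CL1, which feed lignin as well, had log2 folds between -0.70 and 0.046 and were not called.

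No regulator of this pathway was called. In the authors' Cuffdiff test 0 of 13 tested MYB, bHLH and WD40 regulators passed, with 5 at an unadjusted p under 0.05. MYBL2 (AT1G71030), a MYB that represses anthocyanin genes, was at 185 FPKM in shade and 58.7 FPKM in white light (1.66 ± 0.50). MYB75, an activator, was at 1.62 FPKM in shade and 4.41 FPKM in white light (-1.44 ± 0.40).

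Aliphatic glucosinolates are sulfur-rich defence compounds made from elongated methionine, and more than 1 step of their synthesis held genes that fell. Of 14 tested genes 8 were called lower and none higher, with 13 log2 folds below 0 and a median of -1.06. The regulator MYB29 (AT5G07690) fell to 1.60 FPKM in shade, against 10.7 FPKM in white light, and MYB28 to 35.4 FPKM in shade, against 59.7 FPKM in white light. For chain elongation, BAT5 (AT4G12030), a plastid importer, MAM1 (AT5G23010) and IPMI2 (AT2G43100) fell to 20.2, 45.4 and 78.1 FPKM in shade, against 45.1, 117 and 170.4 FPKM in white light. For core synthesis, CYP79F1 (AT1G16410), CYP83A1 (AT4G13770) and SOT18 fell to 6.95, 37.4 and 28.2 FPKM in shade, against 56.6, 85.1 and 55.8 FPKM in white light. Outside the list, AOP2 (AT4G03060), for which the reference lists no product, fell to 1.28 FPKM in shade, against 9.43 FPKM in white light (-2.88 ± 0.36). The merged loci over the side-chain oxygenase genes FMO GS-OX1 and FMO GS-OX3 fell to 2.43 and 3.87 FPKM in shade, against 8.34 and 19.2 FPKM in white light.

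Within the aliphatic group CYP79F1, with a log2 fold of -3.03 ± 0.26, and its tandem relative CYP79F2, with -0.53 ± 0.24 and no call, stood far apart. MAM3 was at 50.5 FPKM in shade and 49.8 FPKM in white light and was not called, unlike MAM1. Genes of indolic glucosinolates, which are made from tryptophan, held fewer calls. Of 14 tested 3 were called lower and none higher, with a median of -0.49. CYP79B3 (AT2G22330), GGP1 (AT4G30530) and UGT74B1 (AT1G24100) fell to 31.0, 81.6 and 30.9 FPKM in shade, against 52.2, 139.7 and 55.5 FPKM in white light.

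Several genes of sulfate assimilation, which supplies sulfur to these compounds, fell. Of 20 genes of nitrate, phosphate and sulfate use 5 were called lower, all of sulfur metabolism, and 1 was called higher. APR1 (AT4G04610), APR2 (AT1G62180) and APR3 (AT4G21990), the reductases that control the flux into sulfite, fell to 27.7, 46.1 and 45.6 FPKM in shade, against 65.7, 105 and 105 FPKM in white light. SDI1 (AT5G48850) and LSU2 (AT5G24660), known as markers of sulfur deficiency, fell too, to 4.79 and 15.8 FPKM in shade, against 11.2 and 32.8 FPKM in white light. NIA1 (AT1G77760), a nitrate reductase, rose to 223 FPKM in shade, against 116 FPKM in white light (0.94 ± 0.30).

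**Figure D4:**
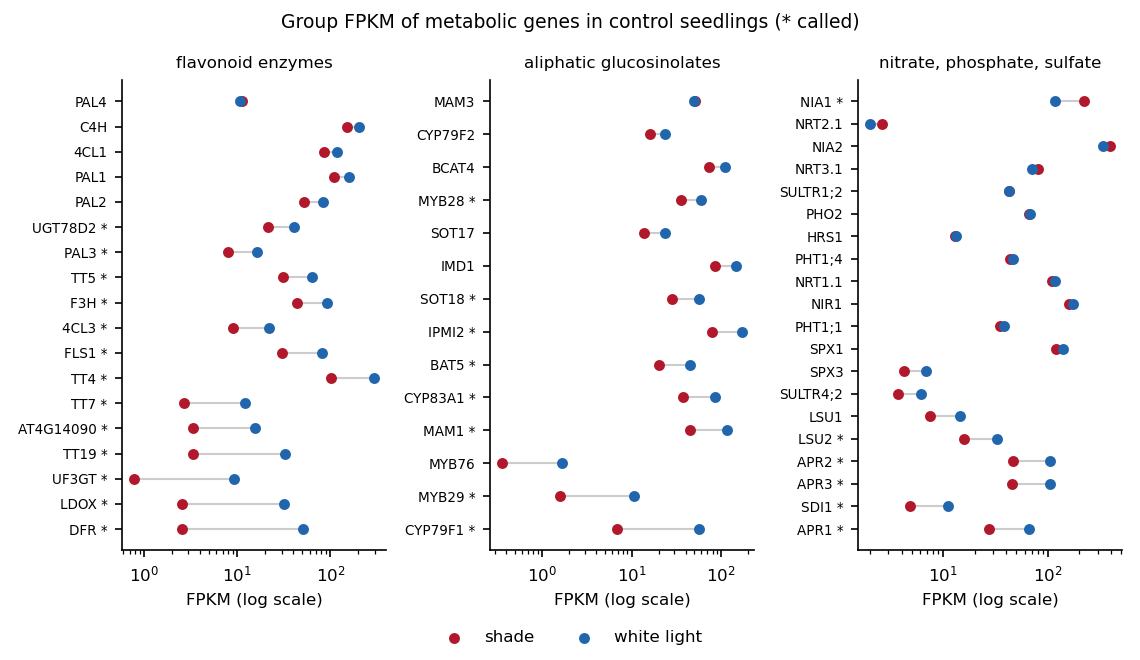
FPKM of each group (horizontal axis, log scale) for tested genes of 3 metabolic lists, with shade in red and white light in blue and a grey line between the group values. Asterisks mark called genes; every called flavonoid and aliphatic glucosinolate gene has its shade value to the left of its white-light value, and NIA1 is the called gene with shade to the right.

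Iron genes of the root split by function. Of 17 tested, MYB10 (AT3G12820), a regulator needed under iron deficiency, rose to 8.49 FPKM in shade, against 0.949 FPKM in white light (3.16 ± 0.41), and FRO2 (AT1G01580), the root ferric reductase, to 3.60 FPKM in shade, against 0.530 FPKM in white light (2.76 ± 0.45). The iron importer IRT1 was at 9.78 FPKM in shade and 1.42 FPKM in white light (2.78 ± 0.94) and was not called. NAS1 (AT5G04950) and NAS4 (AT1G56430), which make the iron chelator nicotianamine, fell to 35.7 and 14.3 FPKM in shade, against 76.6 and 32.2 FPKM in white light. Of the 6 root hair markers 5 had log2 folds below 0 and none was called, and the part of root hair cells in these changes was not tested.

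Most log2 folds of nuclear photosynthesis genes lay slightly below 0, and few were called. Of 48 tested light-harvesting and photosystem genes 45 log2 folds were below 0, the median was -0.21 and 2 were called, both lower. RBCS1B (AT5G38430), a small subunit of Rubisco, fell to 304 FPKM in shade, against 699 FPKM in white light, and LHCB4.3 (AT2G40100) to 5.15 FPKM in shade, against 10.7 FPKM in white light. RBCS and LHCB genes are near-identical copies, so values of single members are uncertain. Outside the list, the plastocyanin gene PETE1 (AT1G76100) fell to 145 FPKM in shade, against 271 FPKM in white light, and the Calvin cycle aldolase gene FBA1 (AT2G21330) to 246 FPKM in shade, against 491 FPKM in white light. The 20 tested members of the list of chloroplast-encoded transcripts all had log2 folds above 0, with a median of 0.63, but none was called in the authors' Cuffdiff test and 2 had an unadjusted p under 0.05. The most abundant, TRNH (ATCG00010), was at 1593 FPKM in shade and 661 FPKM in white light (1.27 ± 1.46). A merged locus of the chloroplast genome that the authors' deposited table names PSBK, outside the list, rose to 51.9 FPKM in shade, against 28.2 FPKM in white light (0.88 ± 0.15). Libraries of polyadenylated RNA carry such transcripts poorly.

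Of 25 genes of chlorophyll and carotenoid synthesis 22 log2 folds were below 0, 2 were called higher and 1 lower. PORA (AT5G54190), the protochlorophyllide reductase that accumulates in dark-grown seedlings, rose to 5.09 FPKM in shade, against 0.393 FPKM in white light (3.69 ± 0.57). BCH2 (AT5G52570), a carotene hydroxylase, rose to 52.5 FPKM in shade, against 19.1 FPKM in white light (1.46 ± 0.41). HEMA1 (AT1G58290), the first enzyme of tetrapyrrole synthesis, fell to 91.9 FPKM in shade, against 183 FPKM in white light (-1.0 ± 0.23). The merged locus over PORC, the reductase of greened tissue, fell to 91.1 FPKM in shade, against 172.8 FPKM in white light. Of 10 tested light-stress genes 3 fell and none rose: ELIP1 (AT3G22840) and ELIP2 (AT4G14690), early light-inducible proteins, fell to 31.9 and 16.6 FPKM in shade, against 68.1 and 37.7 FPKM in white light, and HSP70 (AT3G12580) to 5.85 FPKM in shade, against 12.9 FPKM in white light.

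Defence hormones were represented by falls of jasmonate genes and a single large rise. Of 31 tested jasmonate genes 4 were called lower and 1 higher. ST2A (AT5G07010), the sulfotransferase that inactivates hydroxyjasmonate, rose to 258 FPKM in shade, against 8.47 FPKM in white light, a log2 fold of 4.93 ± 0.24, and its tandem neighbour ST2B (AT5G07000), outside the list, to 48.5 FPKM in shade, against 17.0 FPKM in white light (1.51 ± 0.20). The lipoxygenase genes LOX3 (AT1G17420) and LOX4 (AT1G72520), the storage protein gene VSP2 (AT5G24770) and the repressor gene JAZ9 (AT1G70700) fell to 1.18, 0.658, 4.53 and 11.3 FPKM in shade, against 3.77, 1.68, 12.2 and 21.7 FPKM in white light. None of 11 salicylate genes was called in the authors' Cuffdiff test, with 1 at an unadjusted p under 0.05, and the most abundant, EDS1 (AT3G48090), was at 16.9 FPKM in shade and 16.6 FPKM in white light. Of 8 MLP-like genes, related to latex proteins, MLP28 (AT1G70830) and MLP43 (AT1G70890) fell to 73.1 and 30.9 FPKM in shade, against 228 and 82.5 FPKM in white light.

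Other lists held few calls. Of 21 clock genes RVE7 (AT1G18330) rose to 16.4 FPKM in shade, against 8.09 FPKM in white light (1.02 ± 0.25). Among 7 tested flowering genes FLP1 (AT4G31380), a small protein related to the flowering promoter FPF1, rose to 23.6 FPKM in shade, against 1.45 FPKM in white light (4.02 ± 0.37), and the florigen gene FT was at 0.357 FPKM in shade and 0.274 FPKM in white light and was not tested. Of 13 touch and calcium genes TCH4, described with the XTH genes, was the called member. In 32 wax and cutin genes 3 fell and none rose: LTL1 (AT3G04290), HTH (AT1G72970) and GPAT8 (AT4G00400), with log2 folds of -1.0 ± 0.19, -0.77 ± 0.24 and -0.72 ± 0.22. In 21 lignin and peroxidase genes PRXCA (AT3G49110), a peroxidase, rose with 1.39 ± 0.21, and FAH1 (AT4G36220), a hydroxylase of the phenylpropanoid pathway, fell with -1.21 ± 0.24.

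In the authors' Cuffdiff test none of 38 cell cycle genes was called, with 0 at an unadjusted p under 0.05, and none of 21 stomatal genes, with 2 at an unadjusted p under 0.05. The most abundant of these, KNOLLE (AT1G08560) for cell division and ER (AT2G26330) for stomata, were at 41.7 and 45.7 FPKM in shade, against 39.4 and 39.7 FPKM in white light. None of 6 tested mitochondrial transcripts was called, with 0 at an unadjusted p under 0.05, and RRN26 (ATMG00020) was at 69.5 FPKM in shade and 55.2 FPKM in white light. By annotated product, none of 307 ribosomal protein genes or 83 histone genes was called, with 1 and 1 at an unadjusted p under 0.05. UDP-glycosyltransferases fell in 12 and rose in 3 of 103, and cytochrome P450 genes fell in 9 and rose in 1 of 163.

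The lists held 139 of the 580 called genes, and several of the largest changes lay outside them. AT5G02540, annotated as a Rossmann-fold protein, rose to 281 FPKM in shade, against 9.54 FPKM in white light (4.88 ± 0.20). AT1G69140, which the reference annotates as a pseudogene, rose to 239 FPKM in shade, against 11.4 FPKM in white light (4.38 ± 0.33). FAR1 (AT5G22500), a fatty acyl reductase of suberin alcohols, rose to 203 FPKM in shade, against 13.7 FPKM in white light (3.89 ± 0.25). AT3G21330, a bHLH gene, AT5G44260, a zinc finger gene, and AT5G02580 rose to 41.7, 53.5 and 31.1 FPKM in shade, against 2.84, 4.21 and 2.68 FPKM in white light. On the reference, AT5G02540 and AT5G02580 lie on chromosome 5 and AT1G69140 and ADS1 on chromosome 1.

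Among falls outside the lists, AT1G13650, of unknown function, fell to 2.40 FPKM in shade, against 31.6 FPKM in white light (-3.72 ± 0.37). AT3G44970, a cytochrome P450 gene, fell to 4.85 FPKM in shade, against 45.1 FPKM in white light (-3.22 ± 0.25). MEE3 (AT2G21650), of the homeodomain-like class, the receptor kinase gene CRK30 (AT4G11460) and the GDSL lipase gene AT1G28610 fell to 1.12, 2.12 and 2.24 FPKM in shade, against 10.3, 14.1 and 14.8 FPKM in white light. MSRB6 (AT4G04840), a methionine sulfoxide reductase, the dirigent-like gene AT1G65870 and the methyltransferase gene AT1G73600 fell to 15.8, 1.42 and 16 FPKM in shade, against 98.7, 8.07 and 89.4 FPKM in white light. The merged locus over MIR157c, a microRNA precursor, fell to 2.04 FPKM in shade, against 14.9 FPKM in white light. A merged locus of 95 bases over AT4G06430 was listed at 0 in shade and 247.0 FPKM in white light and was called lower; it is too short to read with confidence.

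The most abundant called genes held both rises and falls. AZI1 (AT4G12470), a lipid-transfer-like protein of defence priming, rose to 754 FPKM in shade, against 222 FPKM in white light (1.77 ± 0.17). DGR2 (AT5G25460), J8 (AT1G80920), a chloroplast DnaJ protein, AT3G15450 and the arabinogalactan protein gene AGP4 (AT5G10430) rose to 507, 411, 399.6 and 359 FPKM in shade, against 222, 184, 152 and 171 FPKM in white light. PBP1 (AT3G16420), a jacalin-like protein that binds the endoplasmic reticulum body enzyme PYK10, fell to 638 FPKM in shade, against 1327 FPKM in white light (-1.06 ± 0.32). GSTU20 (AT1G78370), ECS1 (AT1G31580), AT5G23820, AT1G54010 and AT5G08050 fell to 196, 115, 251, 131 and 134 FPKM in shade, against 459, 291, 467, 272 and 216 FPKM in white light. The 10 most abundant genes of each group held 12% of summed FPKM in shade and 11.9% in white light.

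Size of fold and call did not always go together. The called genes with the smallest log2 folds were HEXO3 (AT1G65590), sks9 (AT4G38420), CRCK2 (AT4G00330), AT2G23672 and AT5G48490, between -0.69 and -0.66, all at 15.7 FPKM or more in both groups. Among genes at 1 FPKM or more in both groups, the largest uncalled log2 folds were those of SAUR10, at 3.58, and of 4 merged loci. Of these loci 1 over the 78 bases of AT5G00580 was at 29.9 FPKM in shade and 649 FPKM in white light, and 1 over RTFL18 was at 28.4 FPKM in shade and 1.54 FPKM in white light; a further 1 lies over AT1G69140 and 1 spans 10559 bases over WNK4 and its neighbours. Of 175 named nuclear genes 29 overlap another annotated gene, among them XTH15, FAR1, TT19 and TT4, and since the sources used here do not say that reads were counted by strand, reads of overlapping genes may be mixed.

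Most genes called in control seedlings moved the same way where the epidermis carried axr3-1. Of the 253 genes called higher in control seedlings, 246 had a log2 fold above 0 in CER6pro>>axr3-1 seedlings, and 115 were called higher there. That is 45.5% of the control genes and 72.3% of the 159 genes called higher in CER6pro>>axr3-1 seedlings, which were 0.778% of genes tested there. Of the 327 called lower, 317 were below 0 and 184 were called lower, 56.3% of the control genes and 51.5% of the 357 called lower in CER6pro>>axr3-1 seedlings, which were 1.75% of genes tested there. The genes called higher in control seedlings had a median log2 fold of 0.87 in CER6pro>>axr3-1 seedlings and 1.35 in control seedlings, and those called lower -0.93 in CER6pro>>axr3-1 seedlings and -1.09 in control seedlings. The control folds are the values that chose the genes. Reads of AXR3, which sum the endogenous gene and the construct, were at 112 FPKM in shade and 113 FPKM in white light in CER6pro>>axr3-1 seedlings, against 37.1 FPKM in shade and 47.1 FPKM in white light in control seedlings. PHYA and PIF7 had log2 folds of 1.84 and -1.65 in CER6pro>>axr3-1 seedlings, and APR1 and LSU2 of -0.87 and -1.33.

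For each gene the log2 folds of both genotypes were compared by a z test, two-sided, using their standard errors, and adjusted by the Benjamini-Hochberg method over 19990 genes. It found 124 genes, 0.62%, 87 with a lower and 37 with a higher log2 fold in CER6pro>>axr3-1 seedlings. Of the 10 largest differences 9 lay at genes or merged loci whose statistic and p gave different errors. Among the 18830 genes whose statistic and p gave the same error within 1.5 times, or whose p was the smallest possible, 25 differed. Of these, 16 were called higher and 5 called lower in control seedlings. Genes at the smallest p were kept without a match, which favours called genes. With the standard error taken from the deposited p in place of the statistic, 2 genes differed, MLP28 and ACS4; p-values at their floor of 5e-05 make that error too large for strong changes. The 25 genes are the ones described next, a choice made after their values were seen.

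**Figure D5:**
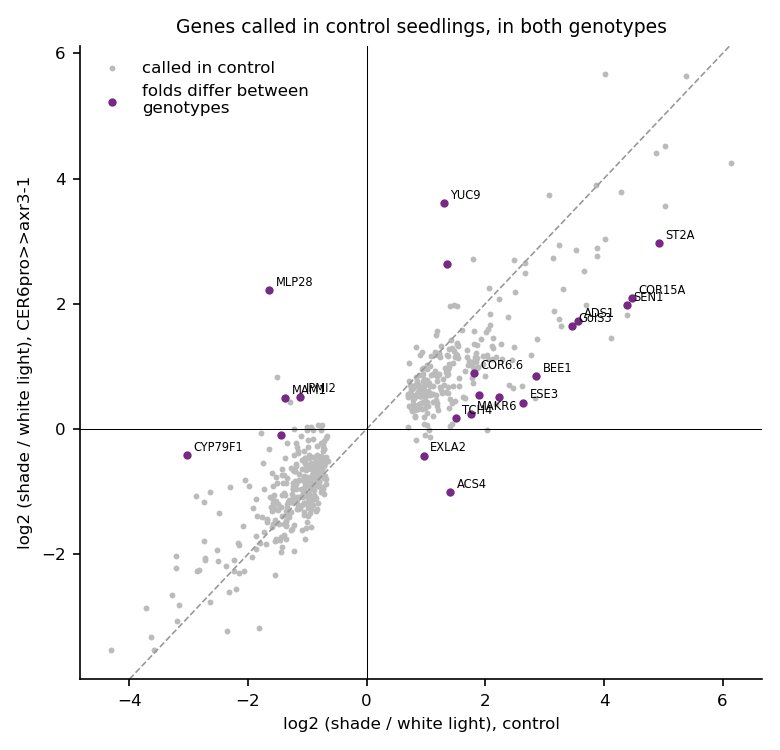
Log2 fold of shade over white light in CER6pro>>axr3-1 seedlings (vertical axis) against that in control seedlings (horizontal axis) for genes called in control seedlings. Purple points differ between the genotypes by the z test among genes whose statistic and p match or whose p is the smallest possible. The dashed line marks equal folds. MLP28 lies at a log2 fold of 2.21 in CER6pro>>axr3-1 and -1.64 in control seedlings.

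Among the 25, 3 aliphatic glucosinolate genes had a smaller fall or none in CER6pro>>axr3-1 seedlings. The list had a median log2 fold of -0.20 and 0 calls there, against -1.06 and 8 calls in control seedlings. CYP79F1 was at 6.68 FPKM in shade and 8.96 FPKM in white light in CER6pro>>axr3-1 seedlings, a log2 fold of -0.42 against -3.03 in control seedlings, a difference of 2.60 ± 0.42. MAM1 and IPMI2 had log2 folds of 0.49 and 0.52 in CER6pro>>axr3-1 seedlings and -1.37 and -1.13 in control seedlings, differences of 1.86 ± 0.34 and 1.64 ± 0.30. MAM1 was at 42.0 FPKM in shade and 29.9 FPKM in white light, and IPMI2 at 78.1 FPKM in shade and 54.6 FPKM in white light, in CER6pro>>axr3-1 seedlings. Set beside the control values above, the 3 genes were within 1.5 times of each other between genotypes in shade and lower in CER6pro>>axr3-1 seedlings in white light, which was not tested. MLP28, at 31.7 FPKM in shade and 6.84 FPKM in white light in CER6pro>>axr3-1 seedlings, differed by 3.85 ± 0.50.

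Of the genes called higher in control seedlings several had smaller folds with axr3-1 in the epidermis. SEN1 was at 1063 FPKM in shade and 270.6 FPKM in white light in CER6pro>>axr3-1 seedlings, a difference of -2.41 ± 0.36. The cold-regulated genes COR15A, GolS3 and COR6.6 differed by -2.39 ± 0.52, -1.83 ± 0.45 and -0.92 ± 0.22, and COR15A was at 35.9 FPKM in shade and 8.47 FPKM in white light there. BEE1, ST2A, ADS1, the ERF-type gene ESE3 (AT5G25190), MAKR6 (AT5G52900), TCH4, EXLA2, AT1G19530 and AT5G62280 had differences between -2.22 and -1.33. ACS4 had a log2 fold of -1.0 in CER6pro>>axr3-1 and 1.41 in control seedlings. In white light SEN1, BEE1, ADS1, ESE3, MAKR6, AT1G19530, AT5G62280 and ACS4 stood higher in CER6pro>>axr3-1 than in control seedlings, and in shade no lower. BEE1 was at 36.2 FPKM in shade and 20.1 FPKM in white light with axr3-1. With axr3-1 COR15A, GolS3, COR6.6, TCH4 and EXLA2 stood lower in shade, and ST2A higher in white light but lower in shade. These genotype levels were not tested. YUC9 had the larger rise with axr3-1, to 37.9 FPKM in shade, against 3.1 FPKM in white light, a difference of 2.32 ± 0.48, and AT5G12050 differed by 1.28 ± 0.26. MBP1 (AT1G52040), AT1G52000, AT2G37870 and KIN1 (AT5G15960), not called in control seedlings, had differences between -1.98 and -1.44, and the lectin gene AT3G16530, called lower there, one of 1.35 ± 0.30.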

How the data were processed

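The comparison used the authors' Cuffdiff tables, which hold 1 FPKM value per gene and group, pooled by the authors over 4 libraries. Per the labels, polyadenylated RNA of whole seedlings was made into stranded single-end libraries. Per the submitters' processing notes, CASAVA 1.8.2, TopHat2 2.0.9, Bowtie2 2.1.0, Cufflinks and Cuffdiff were used on the TAIR10 build; their versions beyond these, and whether counting used strand, are not given in the sources used here. Each table also has a deposited test statistic, a score that follows the sign of the fold, and the authors' deposited p-value and q-value, the q-values adjusted by the authors over more than 1 table. All value columns used were mapped to a group, so 0 were left unmapped. Depth and values per library are not given, so no interval for counting error was computed.

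The log2 fold was recomputed as log2 of shade over white-light FPKM with no pseudocount. Its standard error is the size of the log2 fold divided by the statistic, times 0.558 in control seedlings and 0.559 in CER6pro>>axr3-1 seedlings, the factor that links each table's statistic to its p where p lies between 0.001 and 0.5. A call is a tested gene with q under 0.05. Genotypes were compared by a two-sided z test on genes with at least 1 FPKM in 1 of 4 groups. The scale of that z test rests on these derived errors, not on values per library.

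Named genes were key shade genes, up to 6 called genes of each of 41 lists by size of fold, the 15 largest called rises and falls among genes at 1 FPKM or more in both groups, genes called at under 0.1 FPKM in 1 group, the 10 most abundant called genes each way, the 10 largest genotype differences, the 5 called genes of smallest and uncalled genes of largest fold, and the most abundant member of a list without calls. Other genes were named after their values were seen, and the members and lists were chosen with earlier results of these data known. Names and promoters came from RefSeq TAIR10.1, which matched 32029 of 33543 loci by identifier. For 25738 genes alone in their deposited locus the chromosome was the same, and for 99.2% both ends lay within 2000 bases. Promoter coordinates are those of TAIR10.1. Python 3.11.15, numpy 2.4.6, pandas 2.3.3, scipy 1.17.1 and matplotlib 3.10.9 were used. Alternatives were other thresholds, filters, pseudocounts, scalings, errors and promoter windows.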

Additional observations from a re-analysis of the deposited data

Results flagged for a closer look

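The shade response differed between genotypes in 124 genes by the z test, and the 10 largest differences were singled out. All are log2 folds in CER6pro>>axr3-1 seedlings minus those in control seedlings. MLP28, with a difference of 3.85, is the member of the 10 whose statistic and p give the same error. The merged locus over AT5G00580 differed by 5.5, at 218 FPKM in shade and 104.6 FPKM in white light in CER6pro>>axr3-1 seedlings, against 29.9 FPKM in shade and 649 FPKM in white light in control seedlings. AT3G05746 differed by 5.08 and the merged locus over AT1G22910 by 4.64. The locus of 81 bases within RDUF1 differed by -4.64 and the locus of 120 bases within TLP1 by 4.62. AT3G28155 differed by -3.53, the locus over AT4G03475 by 3.44, a locus of 196 bases on chromosome 2 by 3.40 and the locus over AT1G08865 by -3.38. None of these 9 was called in control seedlings.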

How the results depend on the processing

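Of the counts of called genes, q under 0.01 left 216 lower, and 404 in all. Asking for a log2 fold of at least 1 in size left 385 genes in all, 203 of them lower. Recomputing p from the statistic gave 905 genes, 410 higher and 495 lower. Filters at 1 or 5 FPKM and adjustment over the table alone kept the counts within 1.5 times, at 577 with the latter. The count of genotype differences, 124, was 2 with errors from the deposited p, 1 lower and 1 higher in CER6pro>>axr3-1 seedlings. It was 25, 18 lower and 7 higher, among genes whose statistic and p match or whose p is the smallest possible. That alternative was added after seeing the data. Filters, centring and an adjusted p under 0.01 gave between 100 and 125 genes. Adding 1 FPKM moved 52 of 229 values of named genes and lists by more than their error, which fold sizes of low genes feel most. No paired analysis was possible because the files hold 1 pooled FPKM per group, although the labels number the replicates. For the same reason no library could be left out. The deposited fold column was not run as an alternative, since 780 of its cells in control seedlings are not numbers. With values per library missing, the spread behind each call cannot be shown.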

Other observations

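Counted by annotated product over all tested genes, members of the lists included, several families held calls mainly one way in control seedlings. GDSL lipases fell in 9 of 54 tested genes, glutathione S-transferases in 5 of 50, jacalin lectins in 3 of 26 and MATE efflux carriers in 3 of 37, with 0 called higher in each, against 1.61% of all tested genes called lower. Among bHLH genes 5 of 95 rose, 5.26% against 1.24% of all tested genes, and 1 fell. Protein kinases and uncharacterised proteins lay nearer these shares of all tested genes. Among protein kinases 15 of 634 fell, 2.37%, and 3 rose, 0.47%. Uncharacterised proteins held 22 rises, 1.88%, and 11 falls, 0.94%, among 1172 tested genes.

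AT5G44440, which the reference annotates as a FAD-binding berberine protein, had the largest log2 fold among called genes above 0 FPKM in both groups, at 17.8 FPKM in shade and 0.252 FPKM in white light. CYP82C4, an iron-related oxidase, was at 2.06 FPKM in shade and 0.0438 FPKM in white light and was not called. Both were singled out after their values were seen.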
